A study of Mus musculus with 22 samples.

Results

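The genes described here are the nuclear receptor gene Pparg, the transcription factor genes Cebpa and Cebpb, and 5 genes of fat uptake and storage, Lpl, Fabp4, Cd36, Plin2 and Acsl1. They were taken by symbol from the 22 deposited gene tables, and make up 8 of the 19721 genes listed in at least 1 library. All 8 passed the filter on low counts in every fit. Plin2 was the symbol of a second gene ID, listed in 10 libraries with at most 3.56 counts, or at most 0.254% of the Plin2 counts of that library, and only the main ID was followed. RNA came from J1 mouse embryonic stem (ES) cells, a single cell line that all groups share, and from embryoid bodies, the floating clumps in which such cells differentiate into many lineages. The 2 ES libraries were untreated, although their source label also reads embryoid body. The titles give days 4, 9, 12, 18 and 28 of culture (D4, D9, D12, D18 and D28), each with 2 libraries in the vehicle, 0.1% dimethyl sulfoxide (DMSO), 1 with 10 nM and 1 with 100 nM tetrabromobisphenol A (TBBPA), a brominated flame retardant. The labels give no further agent, and none that drives cells toward fat.

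As background, PPAR gamma is a lipid-sensing nuclear receptor that binds DNA as a partner of the retinoid X receptors and is required for fat cell formation. In cultured preadipocytes C/EBP beta and C/EBP delta come on early and precede PPAR gamma and C/EBP alpha, which then sustain each other and turn on genes of fatty acid uptake, transport and storage. None of these genes is restricted to fat cells: PPAR gamma and CD36 are also made in macrophages and endothelium, lipoprotein lipase in heart and muscle, C/EBP alpha in liver, and the droplet protein perilipin 2 in most cells that store lipid.

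Levels are CPM, counts scaled to the TMM library size, and FPKM, the authors' values per transcript length, is used to compare genes with each other. Total counts were 18158583 to 18998141 per library, so 1 count was worth 0.0496 to 0.0613 CPM. A gene rose or fell, or passed, where its adjusted p was under 0.05 in edgeR's quasi-likelihood test, and log2 changes are given ± SE. Separate cultures are not named in the labels, so the spread behind the p-values is that of these libraries and may be technical. Chi-square per gene, where 1 is counting noise, was 1.64 to 3.38 within the DMSO pairs and 22.6 between the ES libraries. Each TBBPA dose had 1 library a day, so the doses of a day were pooled as 2 samples and set against the DMSO pair.

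In development without TBBPA the 8 genes did not move as a block. From ES to D28, Cebpa, Cebpb, Lpl, Pparg, Fabp4 and Cd36 rose while Plin2 and Acsl1 fell, and the times of their steepest rises differed. All 8 passed between ES and D28, 6 higher and 2 lower, where 83.1% of the 16203 genes tested passed, 45% higher and 38.2% lower. The median log2 change was 3.98 over the 8 genes and 0.13 over all genes tested. From ES to D4, 6 passed (3 higher, 3 lower) beside 62.3% of all genes (31.9% higher and 30.3% lower). From D4 to D9, 5 passed (3 higher, 2 lower) beside 60.8% (31.9% higher and 28.9% lower). From D9 to D12, 3 passed (2 higher, 1 lower) beside 33.1% (17.5% higher and 15.6% lower). From D12 to D18, 5 passed (4 higher, 1 lower) beside 37.7% (20.7% higher and 17.1% lower). The last step, D18 to D28, had the most: 7 passed (6 higher, 1 lower) beside 53% of all genes (24.9% higher and 28.1% lower). Its median log2 change was 0.97 over the 8 genes and -0.03 over all genes.

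**Figure D1:**
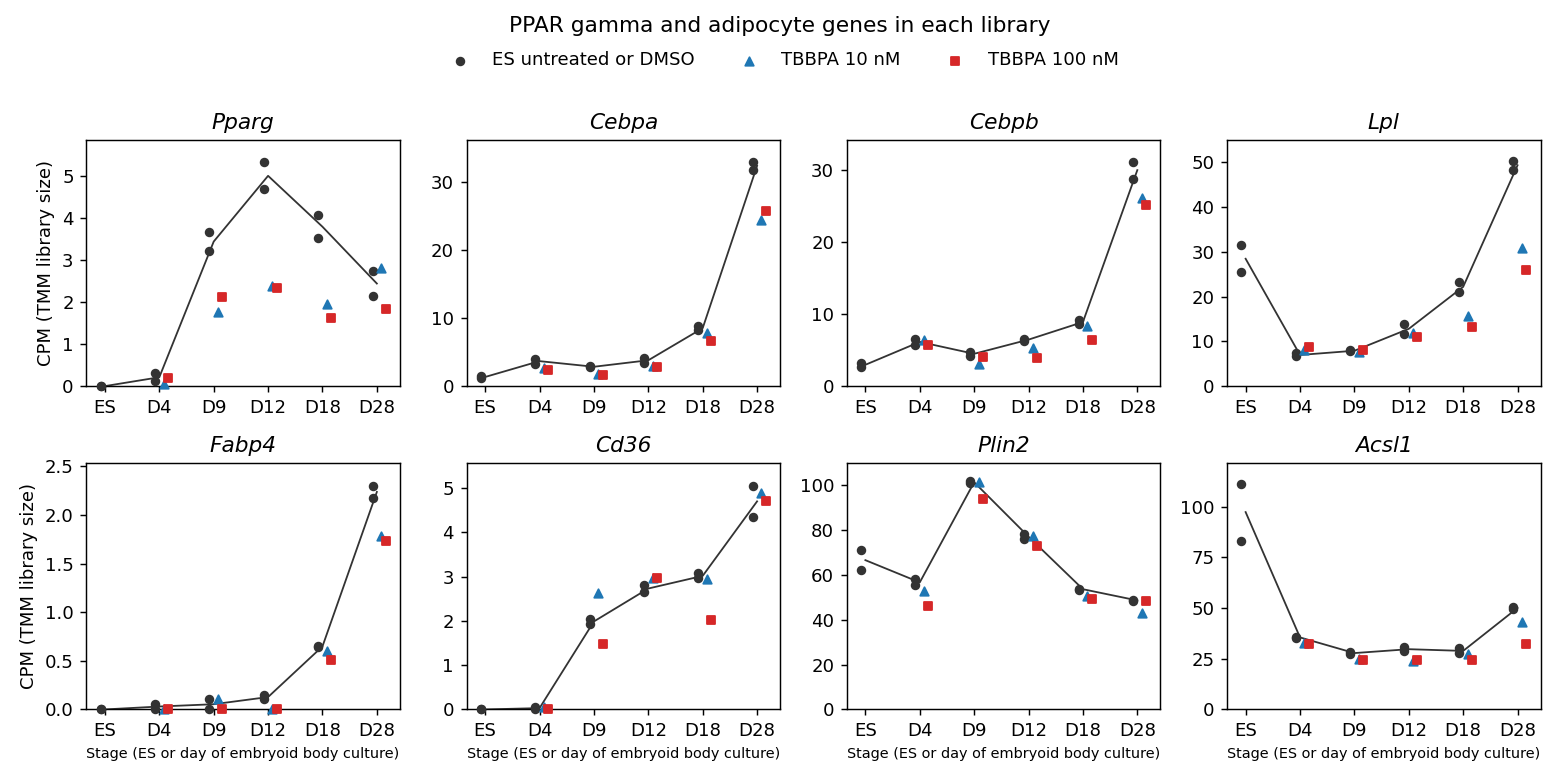
CPM on the TMM library size (vertical axis, linear, from 0) of the 8 genes in each of the 22 libraries, by stage: circles are the untreated ES and DMSO libraries with a line through their means, triangles 10 nM and squares 100 nM TBBPA. Control Pparg was highest at D12 (4.68 and 5.32 CPM), Plin2 at D9 (101.9 and 101 CPM) and Acsl1 in ES cells (83.2 and 111.4 CPM), while the other 5 genes were highest at D28.

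Among the regulators, Pparg had its highest control level in mid-culture, at D12. It was listed in neither ES library, and at 0.1205 and 0.301 CPM in the D4 DMSO libraries, 7 counts in all. Its level was 3.66 and 3.22 CPM at D9, 4.68 and 5.32 at D12, 4.06 and 3.52 at D18 and 2.15 and 2.73 at D28. Both D12 libraries lay above every other control library, and the D9 and D18 libraries overlapped. The rise from D4 to D9 was 3.98 ± 0.37 on the log2 scale (adjusted p = 8.37e-07), or 16.3-fold from 7 to 128 counts with a 95% counting interval of 7.69 to 41.4. In order of level, no difference between neighbours among D28, D9, D18 and D12 passed (adjusted p = 0.0712, 0.527 and 0.143). The rise from D9 to D12 (0.55 ± 0.20) also missed the threshold (0.0524). It passed in 5 of 14 alternatives, among them without both ES libraries (0.00879). The step from D12 to D18 passed with its libraries compared alone (0.0435). The fall from D18 to D28 was -0.64 ± 0.22 (adjusted p = 0.0253), and did not pass without the first D18 or the first D28 DMSO library (0.151 and 0.187). Against ES cells, where a count of 0 allows up to 3 counts per library, Pparg was at least 13.3-fold higher at D28. No fold is given for D4, where the first library held 2 counts, and the call there (adjusted p = 0.00785) was lost without the second D4 DMSO library (0.0659).

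Cebpa, whose protein sustains PPAR gamma in fat cells, rose late. It was at 1.23 and 1.46 CPM in the ES libraries, 3.31 and 4.03 at D4, 2.8 and 2.89 at D9, 3.46 and 4.14 at D12, 8.82 and 8.23 at D18 and 31.85 and 32.96 at D28. Only D4 and D12 overlapped, and these did not differ (adjusted p = 0.758). The changes were 1.45 ± 0.21 from ES to D4 (adjusted p = 3.04e-05), 1.17 ± 0.15 from D12 to D18 (2.46e-05) and 1.92 ± 0.12 from D18 to D28 (2.05e-08), and 4.601 ± 0.164 in all (3.23e-12). Cebpb, the early factor of the preadipocyte sequence, had nearly the same course. Its values were 2.70 and 3.22 CPM in ES cells, 5.72 and 6.56 at D4, 4.74 and 4.23 at D9, 6.31 and 6.60 at D12, 8.62 and 9.17 at D18 and 28.8 and 31.19 at D28. D4 and D12 again overlapped (adjusted p = 0.602), and the rise from D18 to D28 was 1.75 ± 0.12 (3.48e-08). Smaller Cebpb steps passed as a fall from D4 to D9 (-0.45 ± 0.15, adjusted p = 0.0164) and rises from D9 to D12 (0.54 ± 0.14, 0.0108) and from D12 to D18 (0.47 ± 0.13, 0.0119). Each was lost on leaving out single libraries: the second of D4 or D9 (0.122 and 0.113), the second of D9 or D12 (0.0971 and 0.0685), and 3 of the 4 libraries of D12 and D18 (0.0509 to 0.0834). Thus Cebpa and Cebpb were at their highest at D28, where Pparg was below its D12 level.

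The promoters of these regulators are shown because the genes share a pathway yet differ in course, and motifs of the pathway's own factors could be looked for in them. The RefSeq table (GRCm38.p6, 250 bases before to 50 after a start) held 9 starts of 6 of the 8 genes, with none for Fabp4 or Lpl. The letters searched on both strands were AGGTCA (the element that PPAR and RXR each bind), DR1 (that element repeated after 1 base of any kind), the box CCAAT, the box TATAAA and, as a core of C/EBP sites, TTGCNNAA. Every DR1 holds the AGGTCA element, and no other pair of motifs was kept from overlapping. Capitals mark every match, and a match on the opposite strand appears as its reverse complement.
Pparg start 2, chr6:115362099-115362398, + strand: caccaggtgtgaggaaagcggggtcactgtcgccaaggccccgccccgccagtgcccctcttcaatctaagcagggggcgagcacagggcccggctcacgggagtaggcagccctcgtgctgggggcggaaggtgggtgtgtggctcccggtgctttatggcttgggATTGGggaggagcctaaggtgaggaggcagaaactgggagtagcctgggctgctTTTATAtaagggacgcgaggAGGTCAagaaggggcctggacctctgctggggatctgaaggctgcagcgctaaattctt
Pparg start 3, chr6:115421816-115422115, + strand: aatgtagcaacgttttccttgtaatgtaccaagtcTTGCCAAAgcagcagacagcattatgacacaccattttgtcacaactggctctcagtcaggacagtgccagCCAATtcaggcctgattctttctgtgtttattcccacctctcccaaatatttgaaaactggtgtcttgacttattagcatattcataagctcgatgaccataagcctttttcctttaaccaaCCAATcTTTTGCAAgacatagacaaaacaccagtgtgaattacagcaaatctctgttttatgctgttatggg
Cebpa start 1, chr7:35119043-35119342, + strand: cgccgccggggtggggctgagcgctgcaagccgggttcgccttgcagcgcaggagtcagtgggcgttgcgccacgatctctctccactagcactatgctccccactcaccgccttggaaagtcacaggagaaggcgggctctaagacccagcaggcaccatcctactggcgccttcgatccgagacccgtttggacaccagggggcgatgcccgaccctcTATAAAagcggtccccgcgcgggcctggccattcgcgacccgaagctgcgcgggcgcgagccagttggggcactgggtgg
Cebpb start 1, chr2:167688665-167688964, + strand: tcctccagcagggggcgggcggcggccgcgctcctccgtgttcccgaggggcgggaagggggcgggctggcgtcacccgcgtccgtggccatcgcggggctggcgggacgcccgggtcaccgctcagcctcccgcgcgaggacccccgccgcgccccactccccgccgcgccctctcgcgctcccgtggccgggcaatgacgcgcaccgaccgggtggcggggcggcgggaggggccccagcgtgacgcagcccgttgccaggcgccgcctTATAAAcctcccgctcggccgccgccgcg
Start 2 of Pparg had AGGTCA 9 bases before it, TATAAA on the opposite strand 29 before it and CCAAT on the opposite strand 83 before it. At start 3 the C/EBP core lay 215 and, on the opposite strand, 16 bases before the start, and CCAAT 144 and 22 before it. Of all 32851 promoters in the table, 10.8% held the C/EBP core, 37.4% CCAAT, 16.3% AGGTCA, 13.6% TATAAA and 0.0396% DR1. Cebpa had TATAAA 30 bases before its start and Cebpb the same letters 21 bases after it, and neither window held the C/EBP core or AGGTCA. The same element was also found 28 bases before start 1 of Pparg and, on the opposite strand, 228 before the Cd36 start and 218 before the Plin2 start. No DR1 match lay in any of the 9 windows. Their GC content was 80.3, 62.7 and 40.3% at the Pparg starts, 67.3% for Cebpa and 80.7% for Cebpb, where the median of the table was 52.7%. A match describes letters in the window only.

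The genes of fat uptake and storage differed in course. Lpl encodes lipoprotein lipase, which frees fatty acids from circulating triglyceride. It was at 31.4 and 25.5 CPM in ES cells, 6.625 and 7.28 at D4, 7.80 and 7.99 at D9, 11.6 and 13.96 at D12, 21.1 and 23.2 at D18 and 48.35 and 50.24 at D28. Its course was a fall and a recovery: no control groups overlapped, and the D28 libraries lay above those of ES cells. Lpl fell by 2.03 ± 0.13 from ES to D4 (adjusted p = 7.8e-09), then rose by 0.71 ± 0.14 from D9 to D12 (0.00119), by 0.80 ± 0.12 to D18 (0.00012) and by 1.15 ± 0.11 to D28 (9.76e-07). The step from D4 to D9 did not pass (0.312).

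Fabp4, the fatty acid carrier of fat cells, and Cd36, a fatty acid receptor of the cell surface, were at or near 0 in ES cells and D4 embryoid bodies. Fabp4 had 1 count over the D4 DMSO libraries, 2 over those of D9 and 5 over those of D12. It then reached 0.652 and 0.645 CPM at D18 and 2.3 and 2.17 CPM at D28. The groups from ES to D12 were within 5 counts of each other, and both D28 libraries were above all others. Fabp4 rose 5.08-fold from D12 to D18 (5 to 26 counts, 95% counting interval 1.92 to 16.9, adjusted p = 0.0116) and 3.45-fold to D28 (2.21 to 5.57, adjusted p = 0.00121). The first of these was lost without any of the 4 libraries (0.0514 to 0.09), and DESeq2 called neither (0.0662 and 0.0613). Cd36 had 0 counts in ES cells and 1 over both D4 DMSO libraries. Its level was 1.94 and 2.04 CPM at D9, 2.65 and 2.81 at D12, 2.96 and 3.07 at D18 and 5.05 and 4.35 at D28. The rise from D4 to D9 was from 1 to 74 counts (ratio 66, 95% counting interval 11.5 to 2640, adjusted p = 1.34e-06), at the same step as that of Pparg. A later rise from D18 to D28 (0.64 ± 0.20, adjusted p = 0.0159) did not pass without either D18 library or the first D28 library (0.0682 to 0.132).

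Plin2, the coat protein of lipid droplets in most cells, peaked early. It was at 62.2 and 71.1 CPM in ES cells, 58.1 and 55.3 at D4, 101.9 and 101 at D9, 78.4 and 75.9 at D12, 53.95 and 53.4 at D18 and 48.8 and 48.5 at D28. The D9 libraries were above all others and those of D28 below all others. Plin2 rose from D4 to D9 (0.84 ± 0.07, adjusted p = 1.26e-07), then fell to D12 (-0.38 ± 0.07, 0.000693) and to D18 (-0.52 ± 0.07, 4.36e-05). The step of Plin2 from D18 to D28 did not pass (0.098, but 0.0196 without both ES libraries). Its fall from ES to D28 (-0.44 ± 0.07, adjusted p = 4.27e-05) did not pass when counts were scaled to library size only (-0.14, 0.0723). The smaller one from ES to D4 (-0.23 ± 0.07, 0.00986) was lost without the second ES or second D4 library (0.0839 and 0.0828). Acsl1, which activates long-chain fatty acids as acyl-CoA, was highest before differentiation. Its levels were 83.2 and 111.4 CPM in ES cells, 35.2 and 35.8 at D4, 27.1 and 28.5 at D9, 28.7 and 30.7 at D12, 27.7 and 30.05 at D18 and 50.55 and 49.5 at D28. The D18 libraries overlapped those of D9 and of D12, and the ES libraries lay above all others. Acsl1 fell by 1.46 ± 0.11 from ES to D4 (adjusted p = 7.81e-08) and rose by 0.79 ± 0.11 from D18 to D28 (6.3e-05). A fall of 0.35 ± 0.12 from D4 to D9 (0.0193) was lost without any of its 4 libraries (0.0552 to 0.108).

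Per transcript length, the set was carried by Plin2 throughout. Its FPKM was the highest of the 8 genes in all 22 libraries, with 29.2 to 80.6% of their summed FPKM. The sum was 59.0 and 69.0 FPKM in ES cells, 42.97 and 43.25 at D4, 71.8 and 71.3 at D9, 65.9 and 66.2 at D12, 59.5 and 60.6 at D18 and 99.5 and 100.1 at D28. Pparg, Fabp4 and Cd36 stayed low in every library, with at most 3.02, 4.13 and 2.01 FPKM, where Cebpa reached 13.6, Cebpb 22.5, Lpl 13.4, Acsl1 26.6 and Plin2 56.1. The D28 sum was thus the highest of the control stages, while the share of Plin2 in it was lower than at D9.

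**Figure D2:**
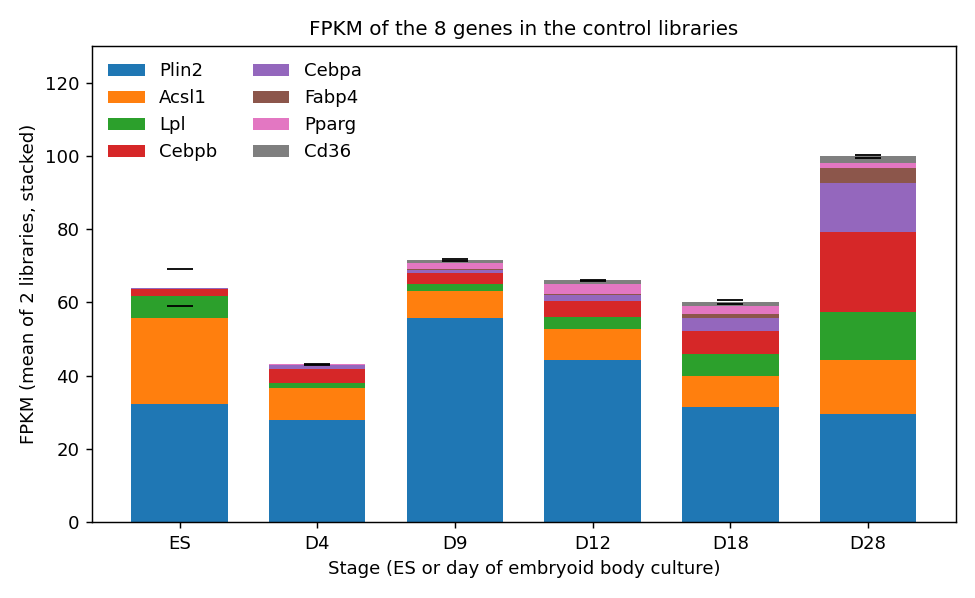
Stacked bars of the mean FPKM of the 8 genes (vertical axis, from 0) in the 2 control libraries of each stage, with black ticks at the sum in each library. Plin2 was the tallest segment at every stage, and the D28 sums of 99.5 and 100.1 FPKM held larger Cebpa, Cebpb and Lpl segments than any earlier bar.

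Close relatives showed which members of these families were abundant. Of the other PPAR receptors, Ppard, which is widely expressed, was at 51.0 ± 6.2 CPM in ES cells and 54.7 ± 1.9 at D28, and Ppara, the receptor of liver fat oxidation, rose from 0.305 ± 0.084 to 3.695 ± 0.00707 (SD, n = 2 libraries each). Per length, Ppard was at 18.4 FPKM at D28, and Pparg at 1.395. The partner Rxra was at 49.7 ± 10.1 CPM in ES cells and 96.5 ± 3.2 at D28. Cebpd, the other early C/EBP factor, took the course of Cebpa and Cebpb: 0.945 ± 0.469 CPM in ES cells, 8.16 ± 1.72 at D18 and 33.6 ± 1.4 at D28, a rise of 2.04 ± 0.16 over the last step (adjusted p = 1.95e-07). Fabp3 and Fabp5, carriers of heart and skin, far exceeded Fabp4, with 151.8 and 162.6 FPKM at D28 against 3.97. Plin3, a droplet protein of most tissues, was at 58.9 FPKM at D28 beside 29.5 for Plin2, and Acsl3 and Acsl4 were at 23.4 and 9.865 beside 14.7 for Acsl1. Plin1 and Adipoq, the droplet protein and the hormone of mature fat cells, were almost unlisted. Plin1 had at most 1 count and was at 0 in 15 libraries, and Adipoq had at most 2 counts and was at 0 in 16.

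The mature fat cell label was checked on 15 markers. Beside Plin1 and Adipoq, the fat cell protease gene Cfd was at 0 in 20 libraries with at most 1 count elsewhere, Retn (resistin) had at most 4 counts, Ucp1, the uncoupling protein of brown fat, at most 12, and Lep (leptin) had no listed count. Only 9 of the 15 passed the filter on low counts. The summed level of all 15 but the unlisted Lep was 41.9 to 44.0 CPM over the D4 DMSO libraries, 867.8 to 898.3 at D12 and 201.8 to 201.9 at D28. At D12 it was mostly Nnat and Rbp4. Nnat, a neuronal proteolipid gene also found in fat, was at 603.7 ± 23.6 CPM at D12, and Rbp4, a retinol carrier of liver and yolk sac as well as of fat, at 251.9 ± 2.7. Other markers of the list were measured: Adrb3, a beta-adrenergic receptor of fat cells, was at 7.075 to 46.97 CPM and highest in an ES library, the lipase gene Lipe at 2.16 to 17.3 and also highest in an ES library, and Slc2a4, the insulin-regulated glucose transporter of fat and muscle, at 1.32 to 9.05 and highest at D28. The list was thus mixed, with Adipoq, Plin1 and Lep at or near 0, and the 8 genes are called by their names and not as a cell type.

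The pathway lists around the 8 genes changed in both directions during development. Of 20 adipogenic transcription factors, 16 passed from D18 to D28 (all genes 53%), 11 higher and 5 lower, with a median of 0.34 (all genes -0.03). Ebf2 and Ebf1, early adipogenic factors, fell (-3.61 ± 0.23 and -2.50 ± 0.19), as did Zfp423, a preadipocyte determinant (-0.82 ± 0.09), while Cebpd rose. Of 16 inhibitors of fat cell formation, 13 passed from ES to D28, 10 higher and 3 lower, a share near the 83.1% of all genes. Among them Dlk1, the preadipocyte inhibitor, rose from 2.44 ± 0.53 to 520.8 ± 5.7 CPM (7.75 ± 0.11, adjusted p = 5.04e-16). Of 16 PPAR family members, partners and coregulators, 12 passed over that span (9 higher, 3 lower), which is also no larger a share than that of all genes, led by Ncoa3 (-1.33 ± 0.06) and by Ppargc1a, the PPAR gamma coactivator (5.16 ± 0.28).

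The metabolic lists are given over the same steps, and no test compared them. Fatty acid oxidation and acyl-CoA genes passed in 13 of 18 from D18 to D28 (all genes 53%), 11 higher and 2 lower, with Acadvl (0.62 ± 0.06), which starts the oxidation of long fatty acids in mitochondria, among the higher. Of 16 droplet coat and lipolysis genes tested, 9 passed over that step, near the 53% of all genes, 8 higher and 1 lower, led by the lipases Mgll (1.02 ± 0.12) and Pnpla2 (0.49 ± 0.07). Triglyceride and fatty acid synthesis genes passed in 14 of 19, 7 higher and 7 lower. From ES to D28, where 83.1% of all genes passed, the oxidation list had 9 higher and 7 lower, the droplet list 5 higher and 4 lower, and the synthesis list 3 higher and 11 lower. Their medians were -0.01, -0.01 and -0.87, beside 0.13 over all genes. The synthesis genes that fell were led by Acly, which makes cytosolic acetyl-CoA (743 ± 34 to 239.2 ± 4.1 CPM), and Elovl6, a fatty acid elongase (257.1 ± 41.8 to 41.05 ± 2.1 CPM). All 16 fatty acid binding and uptake genes tested passed from ES to D28, 11 higher and 5 lower, and 4 from D18 to D28, 1 higher and 3 lower. Fabp7, the carrier of neural progenitors, rose by 7.39 ± 0.27, and Angptl4, an inhibitor of lipoprotein lipase, fell by 3.32 ± 0.25.

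Markers of other cell types moved over the same steps. From D18 to D28, 12 of 14 fibroblast and preadipocyte markers and 12 of 14 macrophage markers tested were higher, beside 24.9% of all genes. The summed fibroblast list was 103.3 to 129.4 CPM in ES cells, 62.9 to 65.2 at D4, 725.9 to 738.6 at D9, 2246 to 2337 at D12, 5694 to 5999 at D18 and 14640 to 15230 at D28. In the second D28 DMSO library it was mostly the collagen genes Col1a1 (5942 CPM), Col3a1 (4486) and Col1a2 (3465). The macrophage list was 23.8 to 29.3 CPM at D9, 46.9 to 48.5 at D18 and 117.8 to 121.6 at D28. Endothelial markers rose in 12 of 14 from D9 to D12 (all genes 17.5% higher). They fell in 10 of 14 and rose in 1 from D12 to D18 (all genes 17.1% lower and 20.7% higher). Their sum was 246.8 to 251.2 CPM at D12, below the 309.4 to 350.4 of ES cells, where Pecam1 and Eng had their highest values. Visceral endoderm, yolk sac and liver markers summed to 1648 to 1688 CPM at D9, when Plin2 was highest, and 346.6 to 358.1 at D28. In whole embryoid bodies more cells of a type and more RNA per cell cannot be told apart, and the part of these cell types in the levels of the 8 genes was not tested.

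The genes most like each member over the 22 libraries were found by Pearson's r of log2(CPM + 0.5) among 12024 or 12025 other genes whose mean reached 2 log2 CPM. These values describe libraries that share their stage and in part their DMSO controls. Among the genes most like Pparg were Cdh5 (r = 0.968), a cadherin of endothelium, and Arl13b (0.967). Cd36 was most like Atoh8 (0.991), 9530068E07Rik (0.991) and Cav1 (0.99), a coat protein of caveolae. Cebpa was most like Col16a1 (0.981), Prkca (0.976) and Eln (0.975), and Cebpb like Cebpa itself (0.975), Cst3 (0.973) and Cyb5d2 (0.972). Lpl was most like Arhgap44 (0.984), Pcolce (0.967) and Chpt1 (0.962), and Fabp4 like Iqsec2 (0.985), Scara5 (0.983) and Krt15 (0.978). For Plin2 they were Ivns1abp (0.927), Polg (0.926) and Dhx40 (0.921), and for Acsl1 Sorl1 (0.97), Ampd3 (0.963) and Phyh (0.952). Within the set, r was 0.968 between Cebpa and Fabp4 and 0.896 between Pparg and Cd36, but 0.406 between Pparg and Cebpa and -0.645 between Cebpa and Plin2. Spearman's rank correlations of these pairs, in the same order, were 0.86, 0.604, 0.465 and -0.591. Fabp4, Cd36 and Pparg were at 0 in 9, 4 and 2 of the libraries, which enter each r.

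With TBBPA each of the 8 genes that passed at a single day was lower than with DMSO. Cebpa passed at D9, Pparg and Cebpb at D12, Pparg and Lpl at D18, and Lpl and Acsl1 at D28. At D4, 0 of 8 passed, beside 0.458% of the 16383 genes tested (0.0855% higher and 0.372% lower), and 2 (Cebpa and Plin2) had an unadjusted p under 0.05; DESeq2 also called 0 of 8. At D9, 1 of 8 was lower, beside 2.34% of all genes (1.37% higher and 0.964% lower). At D12, 2 were lower, beside 21.1% (11.9% higher and 9.19% lower). At D18, 2 were lower, beside 10.5% (5.96% higher and 4.56% lower). At D28, 2 were lower, beside 7.09% (3.65% higher and 3.44% lower). The median log2 change of the 8 genes was -0.17, -0.11, -0.35, -0.25 and -0.29 from D4 to D28, where that of all genes tested lay between 0 and 0.03. Both TBBPA libraries were below both DMSO libraries for 3 of the 8 genes at D4, 4 at D9, 5 at D12, 8 at D18 and 6 at D28. The share of all genes below in this way was 22.9, 23.5, 28.2, 23.8 and 25%. Both were above for 1 gene at D4 (Lpl) and 1 at D12 (Cd36, at 2.96 and 2.97 CPM against 2.65 and 2.81). How many of all genes were above was not counted. Some gaps were small: at D18 Cd36 was at 2.952 CPM with 10 nM, and the lower DMSO library was at 2.958. Fabp4 at D18 had 12 and 10 counts, against 13 in each DMSO library.

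**Figure D3:**
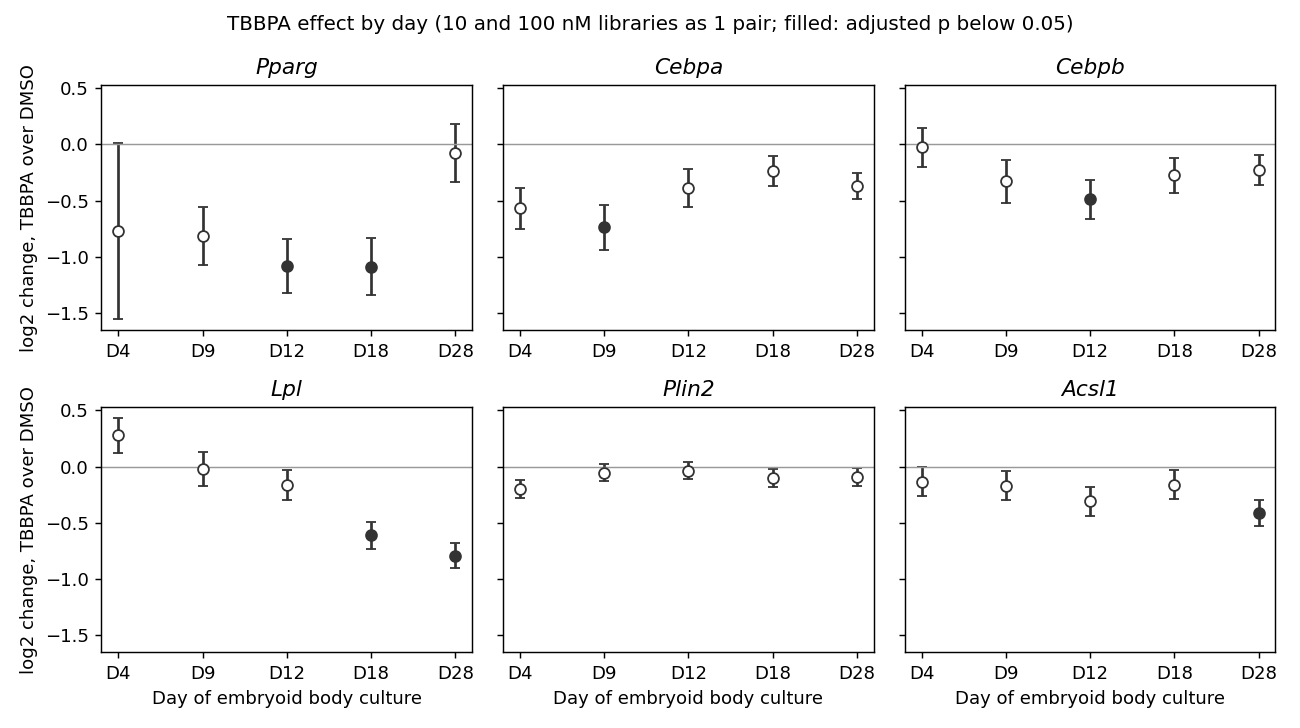
Log2 change with TBBPA against DMSO (vertical axis) at each day (horizontal axis) for the 6 genes that passed in at least 1 TBBPA comparison, with the 10 and 100 nM libraries of a day as a pair; bars are 1 SE and filled points have an adjusted p below 0.05. Pparg was near -1.08 at D12 and D18 and at -0.07 at D28, while Lpl went from 0.28 at D4 to -0.79 at D28.

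Pparg fell with TBBPA at D12 and D18. With 10 nM and 100 nM it was at 1.77 and 2.13 CPM at D9, where the DMSO libraries were at 3.66 and 3.22. At D12 it was at 2.39 and 2.34 CPM (DMSO 4.68 and 5.32), and at D18 at 1.95 and 1.61 (DMSO 4.06 and 3.52). No TBBPA library reached a DMSO library at these 3 days. At D28 the 10 nM library, at 2.80 CPM, was above both DMSO libraries (2.15 and 2.73) and the 100 nM library, at 1.84, below both. The change was -0.82 ± 0.26 at D9 (adjusted p = 0.117), -1.08 ± 0.24 at D12 (0.00268), -1.09 ± 0.25 at D18 (0.00669) and -0.07 ± 0.26 at D28 (0.916). The D12 call passed whichever library was left out (0.0127 to 0.0387), and that of D18 did not without the first DMSO library (0.0887) or the 100 nM library (0.0847). The test of a difference between days did not pass (0.227), so a recovery at D28 was not shown. Of 29 alternatives, 1 passed for Pparg, limma on log2(FPKM + 1) (0.0128).

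Cebpa was below the DMSO mean in all 10 TBBPA libraries, by modest amounts. How many of all genes were so was not counted, and the 2 TBBPA libraries of a day share a DMSO mean. The 10 nM and 100 nM libraries were at 2.64 and 2.305 CPM at D4 (DMSO 3.31 and 4.03), 1.72 and 1.69 at D9 (2.8 and 2.89), and 2.96 and 2.86 at D12 (3.46 and 4.14). They were at 7.81 and 6.70 at D18 (8.82 and 8.23) and at 24.4 and 25.8 at D28 (31.85 and 32.96). No TBBPA library overlapped the DMSO libraries of its day, where 22.9 to 28.2% of all genes were below in this way on a single day. The change passed at D9 (-0.74 ± 0.20, adjusted p = 0.049), and was lost without any of its 4 libraries (0.194 to 0.326). It was -0.57 ± 0.18 at D4 (0.222), -0.38 at D12 (0.112), -0.23 at D18 (0.326) and -0.37 ± 0.11 at D28 (0.0504).

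Cebpb was at 5.30 and 3.905 CPM at D12 with 10 nM and 100 nM, below the DMSO libraries at 6.31 and 6.60. The fall of 0.49 ± 0.17 (adjusted p = 0.0461) was lost without either DMSO library or the 100 nM library (0.125 to 0.411). At D28 it was at 26.1 and 25.1 CPM, where DMSO was at 28.8 and 31.19, and at D4 the 10 nM library (6.36) lay between the DMSO libraries (5.72 and 6.56).

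Lpl was the only one of the 8 genes whose TBBPA effect differed between the days (adjusted p = 0.0023), as it did for 10.4% of all genes tested. At D4 it was at 8.10 and 8.74 CPM with 10 nM and 100 nM, above the DMSO libraries at 6.625 and 7.28. At D9 the TBBPA libraries (7.52 and 8.02 CPM) lay on either side of the DMSO libraries (7.80 and 7.99). At D12 the 10 nM library (11.8) lay between the DMSO libraries (11.6 and 13.96) and the 100 nM library (10.9) below them. At D18 it was at 15.7 and 13.3 CPM, below 21.1 and 23.2, and at D28 at 30.85 and 26 CPM, below 48.35 and 50.24. The D28 libraries were thus at 62.6 and 52.7% of the DMSO mean. The change was 0.28 ± 0.15 at D4 (adjusted p = 0.582), -0.61 ± 0.12 at D18 (0.00185) and -0.79 ± 0.11 at D28 (0.000212). The D28 call passed whichever library was left out (0.000359 to 0.00926), and that of D18 did not without the 100 nM library (0.052).

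Acsl1 was below the DMSO mean in 10 of 10 TBBPA libraries, a count with the same limits as that of Cebpa. It passed at D28. There it was at 43.2 and 32.0 CPM with 10 nM and 100 nM, below the DMSO libraries at 50.55 and 49.5. The fall of 0.41 ± 0.12 (adjusted p = 0.0394) was lost without the first DMSO (0.201), second DMSO (0.176) or 100 nM library (0.504), and the 10 nM library alone gave -0.21. At D12 it was at 23.7 and 24.3 CPM, below 28.7 and 30.7, a change of -0.31 ± 0.13 that did not pass (0.0949).

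The remaining 3 genes passed at no day. Fabp4 was at 1.78 and 1.74 CPM at D28 with 10 nM and 100 nM, where DMSO was at 2.3 and 2.17, and had 0 counts in both D12 TBBPA libraries where the DMSO pair had 5. Cd36 was on either side: at D9 the 10 nM library was above the DMSO libraries (2.63 CPM against 1.94 and 2.04) and the 100 nM library below (1.47), and at D28 both lay between them (4.89 and 4.70). Plin2 was at 43.0 and 48.2 CPM at D28 (DMSO 48.8 and 48.5) and at 52.9 and 46.1 at D4 (58.1 and 55.3). The spread of the 2 DMSO libraries enters every one of these tests. With each DMSO pair summed to 1 library, the change was -1.08 for Pparg at D12 and -0.81 for Lpl at D28. No call of the 8 genes was then kept at any day, and calls over all genes also became fewer.

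Averaged over the 5 days, with the day as a factor, 6 of the 8 genes were lower with TBBPA. Of the 16059 genes tested 22.1% passed (11.7% higher and 10.4% lower), with a median of 0.01 over all of them and -0.31 over the 8 genes. For both doses together the change was -0.78 ± 0.14 for Pparg (adjusted p = 7e-04), -0.41 ± 0.07 for Cebpa (0.00041) and -0.24 ± 0.05 for Acsl1 (0.000996). It was -0.27 ± 0.07 for Cebpb (0.0116), -0.34 ± 0.10 for Lpl (0.0236) and -0.10 ± 0.03 for Plin2 (0.035). Fabp4 (0.272) and Cd36 (0.881) did not pass. The calls of Pparg, Cebpa and Acsl1 held with each library left out, Lpl did not pass without the second D18 DMSO library or any of the D18 and D28 TBBPA libraries (0.0507 to 0.0565), and Plin2 reached 0.0695. Without D12 or without D18, 3 genes passed in place of 6.

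Each dose on its own gave log2 changes below 0 for 7 of the 8 genes at 10 nM and for 8 of 8 at 100 nM. The medians of the 8 genes were -0.25 and -0.36, beside 0.015 over all genes at either dose, and the share of all genes below 0 was not counted. At 10 nM, 3 of 8 were lower, beside 13.4% of 15952 genes (7.3% higher and 6.15% lower): Pparg (-0.70 ± 0.18, adjusted p = 0.0141), Cebpa (-0.37 ± 0.09, 0.00879) and Acsl1 (-0.18 ± 0.04, 0.0106). At 100 nM, 5 were lower, beside 15.2% of 15925 genes (7.45% higher and 7.72% lower). These were Pparg (-0.85 ± 0.16, 0.00242), Cebpa (-0.44 ± 0.09, 0.00368), Acsl1 (-0.31 ± 0.06, 0.00385), Cebpb (-0.34 ± 0.09, 0.0169) and Plin2 (-0.13 ± 0.04, 0.0373). Lpl missed the threshold at both doses (0.0529 and 0.0775). Both doses were set against the same DMSO libraries. Without the D12 or D18 library of its dose, Pparg at 10 nM (0.0844 and 0.0768) and Cebpb at 100 nM (0.0576 and 0.0641) did not pass. Plin2 at 100 nM did not pass on leaving out any of 11 of the 15 libraries (0.055 to 0.114).

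The difference between the doses was tested directly and passed for 0 of the 8 genes and 0% of all genes, higher (0%) or lower (0%). All 8 differences were below 0, with a median of -0.13 (all genes -0.01), and the lowest adjusted p was 0.799, for Cd36. By edgeR's quasi-likelihood test, 0 of the 8 genes and 1025 of the 16059 had an unadjusted p under 0.05, and DESeq2 called 0 of the 8 and 6 in all. Acsl1 differed by -0.12 ± 0.07 and Cd36 by -0.32 ± 0.16. At D28 Acsl1 was 43.2 CPM at 10 nM and 32.0 at 100 nM, and at D12 Cebpb was 5.30 and 3.905, differences that rest on 1 library each. A p that misses the threshold does not show that the doses acted alike.

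The pathway lists were mixed under TBBPA, and their counts are to be read against the 21.1% of all genes that passed at D12 and the 22.1% that passed over the days. At D12, 7 of 20 adipogenic factors passed, 3 higher and 4 lower: Ebf1 rose by 1.001 ± 0.151 and Zfp423 by 0.43 ± 0.08, and Klf9 and Bmp4, which favour fat cell formation, fell (-0.53 ± 0.09 and -0.56 ± 0.14). Of the 16 inhibitors, 4 passed at D12 (1 higher, 3 lower), near the share of all genes, with Dlk1 at 239.6 ± 5.9 CPM with DMSO and 156.3 ± 18.2 with TBBPA. Over the days 5 passed, 1 higher and 4 lower, with Foxo1 at -0.25 ± 0.04. Among the PPAR partners and coregulators, 3 of 16 passed over the days, a smaller share than that of all genes, all lower and by little: Rxra (-0.13 ± 0.03), Ncoa3 (-0.15 ± 0.05) and Ppard (-0.11 ± 0.04).

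Most fatty acid binding and uptake genes did not pass with TBBPA. Of 16 tested, 4 passed at D12 (3 higher, 1 lower), near the 21.1% of all genes, 2 at D18 and 2 at D28, all higher, and for 2 the effect differed between days. The relatives of Fabp4 among them are given as single genes. Fabp3 was at 85.2 ± 3.2 CPM with DMSO and 59.45 ± 1.17 with TBBPA at D12, and at 89.2 ± 4.3 and 132.4 ± 4.3 at D28 (n = 2 each). It fell (-0.52 ± 0.11) at D12 (adjusted p = 0.00232) and rose by 0.57 ± 0.11 at D28 (0.00318), and the effect differed between days (0.000246). Fabp5 rose by 0.52 ± 0.12 at D12 (0.00506), and Fabp7 from 47.6 ± 0.7 to 107.2 ± 0.8 CPM (1.17 ± 0.10, 8.4e-08). Of the droplet and lipolysis genes, Cidec, a droplet fusion gene, fell by 1.45 ± 0.32 at D12 (0.0023), and Mgll was the only one to pass over the days (-0.36 ± 0.07, 0.0016). Acyl-CoA and oxidation genes passed in 6 of 18 over the days, 2 higher and 4 lower, among them Cpt1a, which brings fatty acids into mitochondria (-0.28 ± 0.07, 0.00541). Of 19 triglyceride and fatty acid synthesis genes 2 passed at D12, both lower, with the NADPH source Me1 at -0.59 ± 0.07 (5.73e-06).

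Markers of cell types also moved with TBBPA. At D12, where Pparg and Cebpb were lower, 6 of 14 fibroblast, 4 of 14 endothelial and 2 of 14 macrophage markers were lower and none higher. Of 13 visceral endoderm markers, 9 were lower and 1 higher. Among all genes 9.19% were lower and 11.9% higher, and the macrophage count of 2 was not far from that share. The summed levels at D12, as the DMSO range and then 10 nM and 100 nM, were 2246 to 2337, 1734 and 1458 CPM for fibroblast markers. They were 246.8 to 251.2, 178.8 and 171 for endothelial, 37.7 to 38.4, 22.5 and 19.5 for macrophage and 1469 to 1499, 851.7 and 750.2 for visceral endoderm markers. Cdh5, the endothelial cadherin that was among the genes most like Pparg, fell at D9 (-0.86 ± 0.19), D12 (-1.015 ± 0.181) and D18 (-0.86 ± 0.19). Its likeness to Pparg was computed over all 22 libraries, these included, so falls at the same days are in part built into that choice. The macrophage receptor Csf1r fell at D12 (-1.065 ± 0.169) and D18 (-0.69 ± 0.16).

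At D18 and D28, where Lpl was lower, muscle and fibroblast markers were lower as well, and other lists were higher or mixed. Of 15 muscle markers 10 were lower at D18 and 7 at D28, with none higher, beside 4.56% and 3.44% of all genes lower. The muscle sum was 267.1 to 270.2 CPM with DMSO, 149.8 with 10 nM and 126.7 with 100 nM at D18. At D28 it was 354.8 to 365.7, 264.2 and 242.3. It was also below DMSO at D9 and D12, and at D4 (164.4 to 167.6, 135.4 and 135.6), when Lpl was above DMSO. Fibroblast markers were lower in 7 of 14 at D18, and at D28 in 4, with 2 higher (all genes 3.65% higher). Their sum was 5694 to 5999, 4069 and 2756 CPM at D18 and 14640 to 15230, 9664 and 10380 at D28. The D28 sum with DMSO was mostly collagen RNA. Of the other fibroblast markers, Pdgfra, Pi16, Mfap5 and Thy1 were highest in a D28 TBBPA library, and Pdgfrb, Dcn, Lum and Postn in a D28 DMSO library. Macrophage markers summed to 117.8 to 121.6 CPM with DMSO, 110.5 with 10 nM and 81.9 with 100 nM at D28. In the other direction, endothelial markers summed to 278 to 280.1, 371.4 and 334.4 CPM and visceral endoderm markers to 346.6 to 358.1, 448.2 and 451.5 at D28. At D18 both lists were above the DMSO libraries with 10 nM (238.1 and 905 CPM) and below them with 100 nM (209.7 and 510.1). The mature fat cell list, mostly Nnat and Rbp4, was higher with TBBPA at D12 (DMSO 867.8 to 898.3, then 1138 and 1063 CPM). It was also higher at D18 (751 to 752.4, 1224 and 1087) and D28 (201.8 to 201.9, 232.9 and 262.7). At D9 the list was lower (858.6 to 883.3, 781 and 616). Adipoq, Plin1 and Cfd had at most 2 counts in any library. The part of any of these cell types in the lower Pparg, Cebpb, Lpl and Acsl1 was not tested, and fewer cells of a type and less RNA per cell cannot be told apart.

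**Figure D4:**
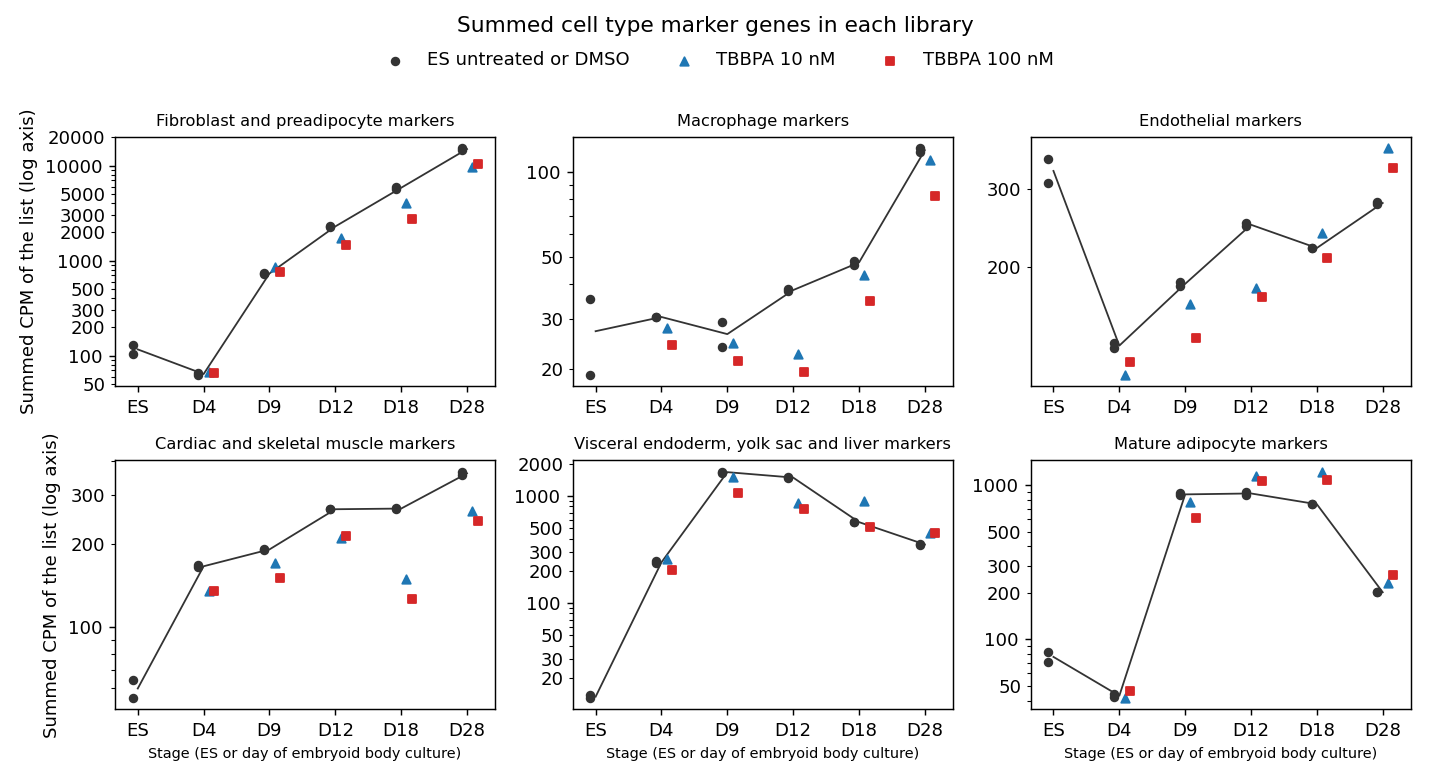
Summed CPM of 6 lists of cell type markers (vertical axes, logarithmic, in CPM) in each library by stage: circles are the untreated ES and DMSO libraries with a line through their means, triangles 10 nM and squares 100 nM TBBPA. Fibroblast markers were below the DMSO libraries at D12, D18 and D28 (at D28 9664 and 10380 CPM against 14640 to 15230), and muscle markers at every day.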

How the data were processed

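RNA of 22 libraries was read from 1 deposited table per library. Its expected counts are the authors' estimated counts of reads per gene, per the file headers. The authors deposited FPKM in the same tables. Reads were aligned with HISAT and Bowtie2 on GRCm38.p5, per the submitters' processing notes, and the counting tool and strand are not given in the sources used here. Genes without a row in a table were set to 0. The 8 genes, 13 gene lists and tests were chosen with earlier results of these data known.

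After rounding of the expected counts, edgeR 4.0.16 was run in R 4.3.3 (TMM, filterByExpr with a minimum count of 10 and total of 15, robust quasi-likelihood F tests, Benjamini-Hochberg over all genes tested, threshold 0.05). SEs are the size of the log2 change divided by the square root of F. Control steps were fitted on 12 libraries (6 residual degrees of freedom), TBBPA by day on 22 (11), each dose over days on 15 (9) and both on 20 (13). The depth of 18158583 to 18998141 counts per library sets the precision, and counting intervals cover counting error only. Replicate numbers did not pair the libraries (correlation of deviations -0.0277 to 0.0935 over 15 pairs of groups). Genes named are the 8, up to 4 of smallest p per list and comparison, up to 3 most alike, and 11 fixed relatives; some genes that this rule names are not reported here. Cfd, Retn and Ucp1 were named after their values were seen. Alternatives were DESeq2 1.42.0, its size factors, library size alone, other filters, limma 3.58.1 on log2(FPKM + 1) and log2(FPKM + 0.1), the replicate number as a block, single doses, no day term, summed DMSO pairs, and libraries or days left out. Leaving out both ES libraries was chosen after seeing the data. Fits were also run on simulated counts with a fixed spread and no differences between stages. These settings differ from the data, so no error rate is drawn from them. Figures used matplotlib 3.10.9 in Python 3.11.15.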

Additional observations from a re-analysis of the deposited data

Results flagged for a closer look

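The TBBPA effect on Lpl differed between the days, by the test of the difference itself over all 5 days (edgeR's quasi-likelihood F test, adjusted p = 0.0023). Lpl was higher than DMSO in both TBBPA libraries at D4 and lower in both at D18 and D28. Leaving out each library in turn gave adjusted p-values of 0.0016 to 0.0123, and summing the DMSO libraries of each day gave 0.232. None of the other 7 genes passed this test. With limma on log2(FPKM + 1), Pparg passed as well (0.0128).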

How the results depend on the processing

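Over the 8 genes and 16 comparisons, 56 of 128 values passed; 23 of these passed under every alternative, 33 were lost under some and 0 turned sign, while 14 of the 72 others passed under some. The number of the 8 genes that passed from D4 to D9 was 3 with library size alone; from D9 to D12 it was 5 without both ES libraries, 5 with library size alone and 6 with log2(FPKM + 1). DESeq2 called 3 from D12 to D18 and 4 from D18 to D28. For TBBPA at D9 the count was 0 with 10 nM alone, 100 nM alone, DESeq2, DESeq2 size factors, each DMSO pair summed, the libraries compared alone or no filter, and 2 with log2(FPKM + 1). At D12 it was 1 with 10 nM alone, DESeq2 or no filter, and 0 with the pairs summed. At D18 it was 0 with 10 nM alone and 0 with the pairs summed, and at D28 1 with 10 nM alone, 0 with the pairs summed and 1 with log2(FPKM + 0.1). For a difference between days it was 0 with the pairs summed and 2 with log2(FPKM + 1). Summing the pairs left 0 at 10 nM, 0 at 100 nM and 3 for both doses over the days, and with no day term each was 0. Without D12 the counts were 1, 3 and 3, without D18 3 at 100 nM and 3 for both, and without D4 5 at 10 nM. Summing the pairs also gave the fewest calls over all genes of any alternative, at each day and for the difference between days. With no day term, 0 of all genes passed at 10 nM, at 100 nM and for both doses over the days. The cause of these moves was not tested, beyond the fewer samples of the smaller fits.

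Leaving out single libraries gave 3 to 4 genes from D4 to D9 and from D12 to D18, 0 for TBBPA at D9, 1 to 2 at D12, 0 to 2 at D18, 1 to 2 at D28, 2 to 5 at 10 nM and 3 to 5 at 100 nM over the days. Values that turned sign were all uncalled. On leaving out libraries they spanned -2.44 to 3.17 for Fabp4 from D4 to D9, -0.094 to 0.0225 for Acsl1 from D12 to D18, and, with TBBPA at D4, -2.46 to 2.46 for Cd36, -0.119 to 0.0768 for Cebpb and -1.7 to 0.00301 for Pparg. At D9 they spanned -0.429 to 0.405 for Cd36, -3.17 to 3.18 for Fabp4, -0.0696 to 0.0234 for Lpl and -0.112 to 0.00265 for Plin2, and at D12 -0.0808 to 0.00308 for Plin2. At D28 they spanned -0.0752 to 0.141 for Cd36 and -0.406 to 0.199 for Pparg. Over the days they spanned -0.083 to 0.0211 for Cd36 (both doses), and for 100 nM minus 10 nM -0.132 to 0.0126 for Cebpa, -0.206 to 0.0394 for Lpl and -0.254 to 0.124 for Pparg. Other settings gave Acsl1 from D12 to D18 0.00318 (library size alone), 0.00865 (log2(FPKM + 0.1)) and 0.00788 (log2(FPKM + 1)). Cd36 was -2.45 (100 nM alone), -0.00688 (pairs summed) and -0.000403 (library size alone) at D4, -0.429 (100 nM alone) and -0.0152 (log2(FPKM + 0.1)) at D9, -0.00101 (library size alone) at D28 and 0.0574 over the days without D18. With 10 nM alone Cebpb was 0.0525 at D4, Plin2 0.00226 at D9 and 0.00294 at D12, and Pparg 0.199 at D28. With 100 nM alone Fabp4 was -3.17 and Lpl 0.0234 at D9. Pparg for 100 nM minus 10 nM was 0.037 with log2(FPKM + 0.1) and 0.0297 without D28.

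With the replicate number as a block the counts of the 8 genes were 6, 5, 3, 5, 7 and 8 for the 6 control comparisons, as without it. No paired analysis was possible for TBBPA because its libraries carry no replicate number. Library size alone moved the median of all genes by 0.298 from ES to D28 and by 0.141 from D4 to D9. It gave 6311 higher and 3459 lower calls from D4 to D9 (5170 and 4679 with TMM), 3409 and 1786 from D9 to D12 (2828 and 2533) and 432 and 688 for TBBPA at D28 (598 and 564). Depth limits Pparg, Fabp4 and Cd36 in ES cells and at D4, where they had 0 to 7 counts over 2 libraries.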
